A study of Mus musculus with 55 samples.

Results

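The genes described here are 10 mouse genes that encode enzymes of glycolysis. They are the hexokinases Hk1, Hk2 and Hk3, the phosphofructokinases Pfkl and Pfkp, the aldolase Aldoa, the phosphoglycerate kinase Pgk1, the enolase Eno1, the pyruvate kinase Pkm and the lactate dehydrogenase Ldha. They were taken by symbol from a count table of 55421 gene rows, in which 11 rows carry these 10 symbols. Aldoa has a second row (ENSMUSG00000114515) with 0 to 207 counts per library, at most 0.502% of the Aldoa counts, so the 10 main rows are described below. The question was which isoform of each step was present in each blood cell population, and whether this differed between wildtype (WT) and Tet2-/- mice.

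The data were bulk RNA-seq of hematopoietic stem and progenitor cells sorted from mouse bone marrow, in 46 libraries. The 6 populations were long-term hematopoietic stem cells (LT-HSC), short-term hematopoietic stem cells (ST-HSC), common myeloid progenitors (CMP), granulocyte-monocyte progenitors (GMP), megakaryocyte-erythroid progenitors (MEP) and common lymphoid progenitors (CLP). There were 3 libraries each of LT-HSC and ST-HSC from WT mice and 4 in each of the other groups. The labels give 200 sorted cells per library, while the study's methods name a larger number per group. Tet2 encodes an enzyme that oxidizes methylated cytosine in DNA. The Tet2-/- mice carried Tet2 f/f and Mx1-Cre on a C57BL/6 background, received poly(I:C) at 4 weeks of age and were analysed 16 weeks after induction. Mx1-Cre is switched on by interferon and acts in many interferon-responsive cells besides stem cells. The WT libraries are labelled by genotype alone, and the sources used here do not state whether the WT mice also received poly(I:C). A figure legend of the study counts its replicates as mice, while the labels do not tie each library to a mouse of its own, so the p-values are read as measuring the spread between these libraries.

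Glycolysis splits glucose into pyruvate in the cytosol and yields ATP and NADH without oxygen. Hexokinase, phosphofructokinase and pyruvate kinase catalyse its practically irreversible steps, and each of these exists as isoforms from separate genes that differ in regulation and tissue. Stem cells of the marrow are known for a reliance on glycolysis, with pyruvate diverted to lactate by lactate dehydrogenase, while their dividing progeny use more mitochondrial respiration.

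The genes lie on 7 chromosomes of the mouse genome (GRCm38, mm10, GENCODE annotation, whole gene spans). The hexokinases are Hk1 at chr10:62268855-62379908, Hk2 at chr6:82725025-82774454 and Hk3 at chr13:55005985-55021385, all on the minus strand. Pfkl is at chr10:77986947-78010083 and Pfkp at chr13:6579768-6648777, both on the minus strand. Aldoa (minus strand) is at chr7:126795234-126800751 and Ldha (plus strand) at chr7:46841475-46855627. Pgk1 at chrX:106187100-106203699, Eno1 at chr4:150236721-150248879 and Pkm at chr9:59656368-59679375 are on the plus strand.

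Promoter windows of 300 bases around the transcription start were read from RefSeq (GRCm38.p6), with 17 windows for the 10 genes. They were searched on both strands for ACGTG, the core of the site bound by hypoxia-inducible factors, for GCGTG, a variant of that core, and for CACGTG, the E-box bound by Myc and Mlx family factors, which contains ACGTG on each strand. ACGTG was in 8 of 17 windows (47.1%), belonging to 7 of 10 genes, against 6447 of 32851 windows of all genes (19.6%). GCGTG was in 8 of 17 windows (47.1%, 5 genes) against 32.4% of all windows. CACGTG was in 1 of 17 windows (5.88%), a window of Ldha, against 7.15% of all windows. These matches describe the letters only, and several windows of Aldoa and Eno1 overlap. The windows of Hk2 (chr6:82774405-82774704, minus strand) and Hk3 (chr13:55021336-55021635, minus strand) are shown because the ratio of these hexokinases differed at each step from LT-HSC to GMP. Those of Pkm (the second of its 2 windows, chr9:59656977-59657276, plus strand) and Ldha (chr7:46845554-46845853, plus strand) are shown because Pkm varied most among populations together with Hk3 while Ldha spanned a narrow range. Matches on either strand are in capitals.
Hk2: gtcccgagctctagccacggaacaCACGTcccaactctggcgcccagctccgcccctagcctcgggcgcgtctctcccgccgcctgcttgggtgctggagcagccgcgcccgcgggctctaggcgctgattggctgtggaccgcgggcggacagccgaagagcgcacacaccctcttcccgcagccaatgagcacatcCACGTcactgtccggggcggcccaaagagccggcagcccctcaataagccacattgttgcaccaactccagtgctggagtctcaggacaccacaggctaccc
Hk3: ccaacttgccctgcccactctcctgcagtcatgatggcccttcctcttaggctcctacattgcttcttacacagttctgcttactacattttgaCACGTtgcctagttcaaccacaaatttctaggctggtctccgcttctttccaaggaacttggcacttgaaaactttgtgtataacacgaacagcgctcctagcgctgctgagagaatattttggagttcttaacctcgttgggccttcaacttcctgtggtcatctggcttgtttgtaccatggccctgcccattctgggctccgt
Pkm: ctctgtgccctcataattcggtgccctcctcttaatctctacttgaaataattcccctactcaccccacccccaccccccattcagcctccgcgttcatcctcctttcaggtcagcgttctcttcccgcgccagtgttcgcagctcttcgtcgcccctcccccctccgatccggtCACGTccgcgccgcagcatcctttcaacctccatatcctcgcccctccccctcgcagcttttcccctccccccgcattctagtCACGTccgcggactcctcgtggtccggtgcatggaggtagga
Ldha: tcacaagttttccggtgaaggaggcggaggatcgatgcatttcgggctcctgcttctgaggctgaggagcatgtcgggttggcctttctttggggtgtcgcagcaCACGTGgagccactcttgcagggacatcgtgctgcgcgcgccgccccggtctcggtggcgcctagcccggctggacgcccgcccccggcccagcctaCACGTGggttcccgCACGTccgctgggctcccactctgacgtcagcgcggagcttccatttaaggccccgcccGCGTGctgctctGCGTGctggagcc
The Hk2 window held 2 matches of ACGTG, the Hk3 window 1, the Pkm window shown 2, and the Ldha window shown 5, counted on both strands. The other Pkm window (chr9:59656326-59656625) held none of ACGTG or GCGTG. The other Ldha window (chr7:46846832-46847131) held none of ACGTG and 2 of GCGTG.

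The libraries held 50458473 to 102148079 counts (median 70118186.5), with 13754 to 20964 genes detected and 2.41 to 14.5% of counts from mitochondrial genes. Levels are given as CPM, gene counts scaled to a common library size, after TMM scaling, which lines up the libraries on their typical genes. Defining markers followed the population labels in most libraries: the summed level of 5 GMP markers was 32229 to 45396 CPM in GMP, that of 5 MEP markers 13321 to 19151 CPM in MEP, and that of 5 HSC markers 201 to 682 CPM in both HSC populations and at most 89.5 CPM elsewhere. One HSC marker, Slamf1, had no counts in Tet2-/- ST-HSC and was at 0 to 1.59 CPM (median 0) in WT ST-HSC. The CLP libraries stood apart from each other. Their CLP marker sum was 145726 to 278556 CPM in WT, almost all of it Ighm, and 2223 to 131543 CPM in Tet2-/- libraries. Ighm alone was at 583 to 130191 CPM in the Tet2-/- CLP libraries. Rag1 was at 0 in all 4 WT CLP libraries, and GMP markers reached 12328 CPM in Tet2-/- CLP replicate 3. The summed level of 4 B cell markers was 567 to 1267 CPM in WT and 99.7 to 669 CPM in Tet2-/- CLP, against 59.1 to 85 CPM in ST-HSC. Enzymes that passed the adjusted p from ST-HSC to CLP, and Pfkp by genotype in CLP, are therefore also given without Tet2-/- CLP replicates 2 and 3. Other CLP results rest on all libraries. Tet2 itself was not lower in the libraries labelled Tet2-/-: its ranges overlapped with WT in all 6 populations (for example 11.2 to 14.3 CPM in WT and 12 to 40.4 CPM in Tet2-/- LT-HSC). Whole-gene counts include Tet2 sequence outside the deleted stretch, so they do not check the labels.

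Per kilobase of gene length, Ldha, Aldoa, Pgk1 and Eno1 were at higher levels than the hexokinases and phosphofructokinases among the 10 genes in every WT population. Among WT group means, Ldha ranged over the 6 populations from 278 to 514 CPM per kilobase, Aldoa from 118 to 205, Pgk1 from 99.3 to 175 and Eno1 from 100 to 307. The hexokinases and phosphofructokinases were lower, with Hk2 from 2.67 to 20.4, Hk1 from 1.21 to 7.74, Pfkl from 5.56 to 37.4 and Pfkp from 0.69 to 11.1 CPM per kilobase. Pkm and Hk3 spanned the widest ranges, from 4.4 to 327 and from 0.148 to 80.5 CPM per kilobase.

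GMP had the highest WT mean level of Hk1, Hk3, Pfkl, Aldoa, Pgk1, Eno1 and Pkm. The highest mean was in LT-HSC for Hk2, in CLP for Pfkp and in MEP for Ldha. The fold between the highest and lowest WT population mean was 543 for Hk3, 74.4 for Pkm, 16.1 for Pfkp, 7.66 for Hk2, 6.73 for Pfkl, 6.41 for Hk1 and 3.07 for Eno1. It was under 2 for Ldha (1.85), Pgk1 (1.76) and Aldoa (1.73). In the order of WT means, GMP did not overlap with the next population for Hk1, Hk3, Pfkl, Eno1 and Pkm. No 2 neighbours in the order of Aldoa were separated, while Ldha separated only CMP from ST-HSC below it. Hk2 separated only CLP from MEP, its lowest population. Pfkp separated GMP from CMP but not CLP from GMP.

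**Figure D1:**
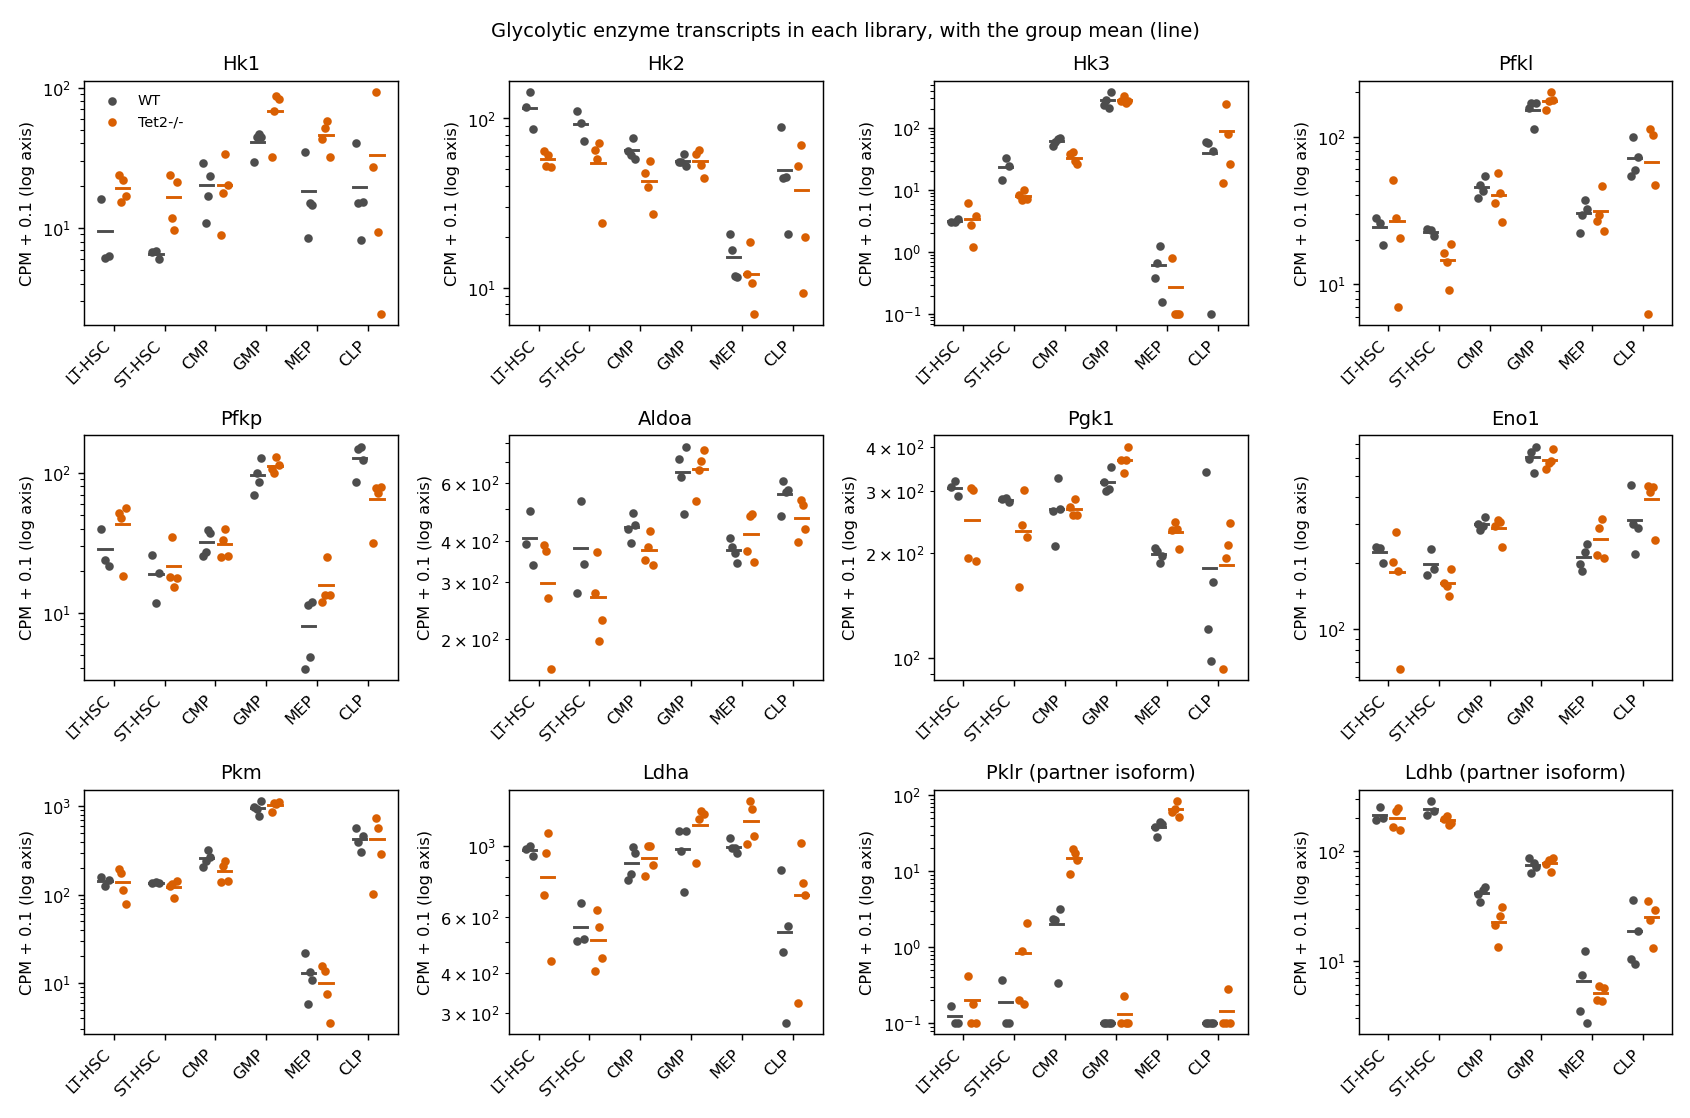
Level of each enzyme in every library (CPM plus 0.1, log axis), by population, with WT in grey, Tet2-/- in orange and a line at the group mean; the partner isoforms Pklr and Ldhb are added. Hk3 and Pkm peak in GMP and are lowest in MEP, where Pklr is highest, while the means of Ldha, Aldoa and Pgk1 span at most 1.85-fold in WT and 2.48-fold in Tet2-/- libraries.

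The shares of the hexokinase isoforms differed between populations. Hk2, an inducible isoform that can bind mitochondria, took 88.3% ± 4.21 (SD, n = 3) of the hexokinase reads per kilobase in WT LT-HSC and 66.8% ± 10.1 (n = 3) in WT ST-HSC. Hk3, an isoform found mainly in myeloid cells, took 4.04% ± 1.36 in WT LT-HSC, 53.8% ± 5.11 (n = 4) in WT CMP and 81.4% ± 4.38 (n = 4) in WT GMP. In MEP, Hk3 dropped to 2.75% ± 2.79 in WT, and Hk1, the broadly expressed isoform, took 52.2% ± 12.9 beside 45.1% ± 12.1 for Hk2. That order depends on the gene length: with the union of GENCODE exons in place of the deposited length, WT MEP had 42.3% ± 12.1 for Hk1 and 54.5% ± 11.4 for Hk2. Hkdc1, a further hexokinase gene, had no counts in any WT library.

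Among the phosphofructokinases, Pfkl (the liver type) led in GMP with 72.9% ± 3.98 of family reads per kilobase in WT, and Pfkm (the muscle type, not among the 10 genes) led in MEP with 61.7% ± 2.55. Pfkp (the platelet type) ranged from 3.22% ± 1.51 in WT MEP to 33% ± 10.8 in WT CLP. These shares depend on the gene length used: with the principal transcript in place of the deposited length, the Pfkl share in WT GMP was 57.7% and the Pfkp share 32.5%. Pkm held 99.2% ± 0.493 (WT CMP) or more of the pyruvate kinase reads per kilobase in every WT group except MEP, where it held 24.1% ± 8.28 and Pklr, the liver and red cell pyruvate kinase, held 75.9% ± 8.28. Counts per gene do not separate the splice forms PKM1 and PKM2. Ldhb, the lactate dehydrogenase subunit associated with lactate use, held 24.6% ± 2.4 in WT LT-HSC and 39.3% ± 0.986 in WT ST-HSC but 0.949% ± 0.661 in WT MEP.

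**Figure D2:**
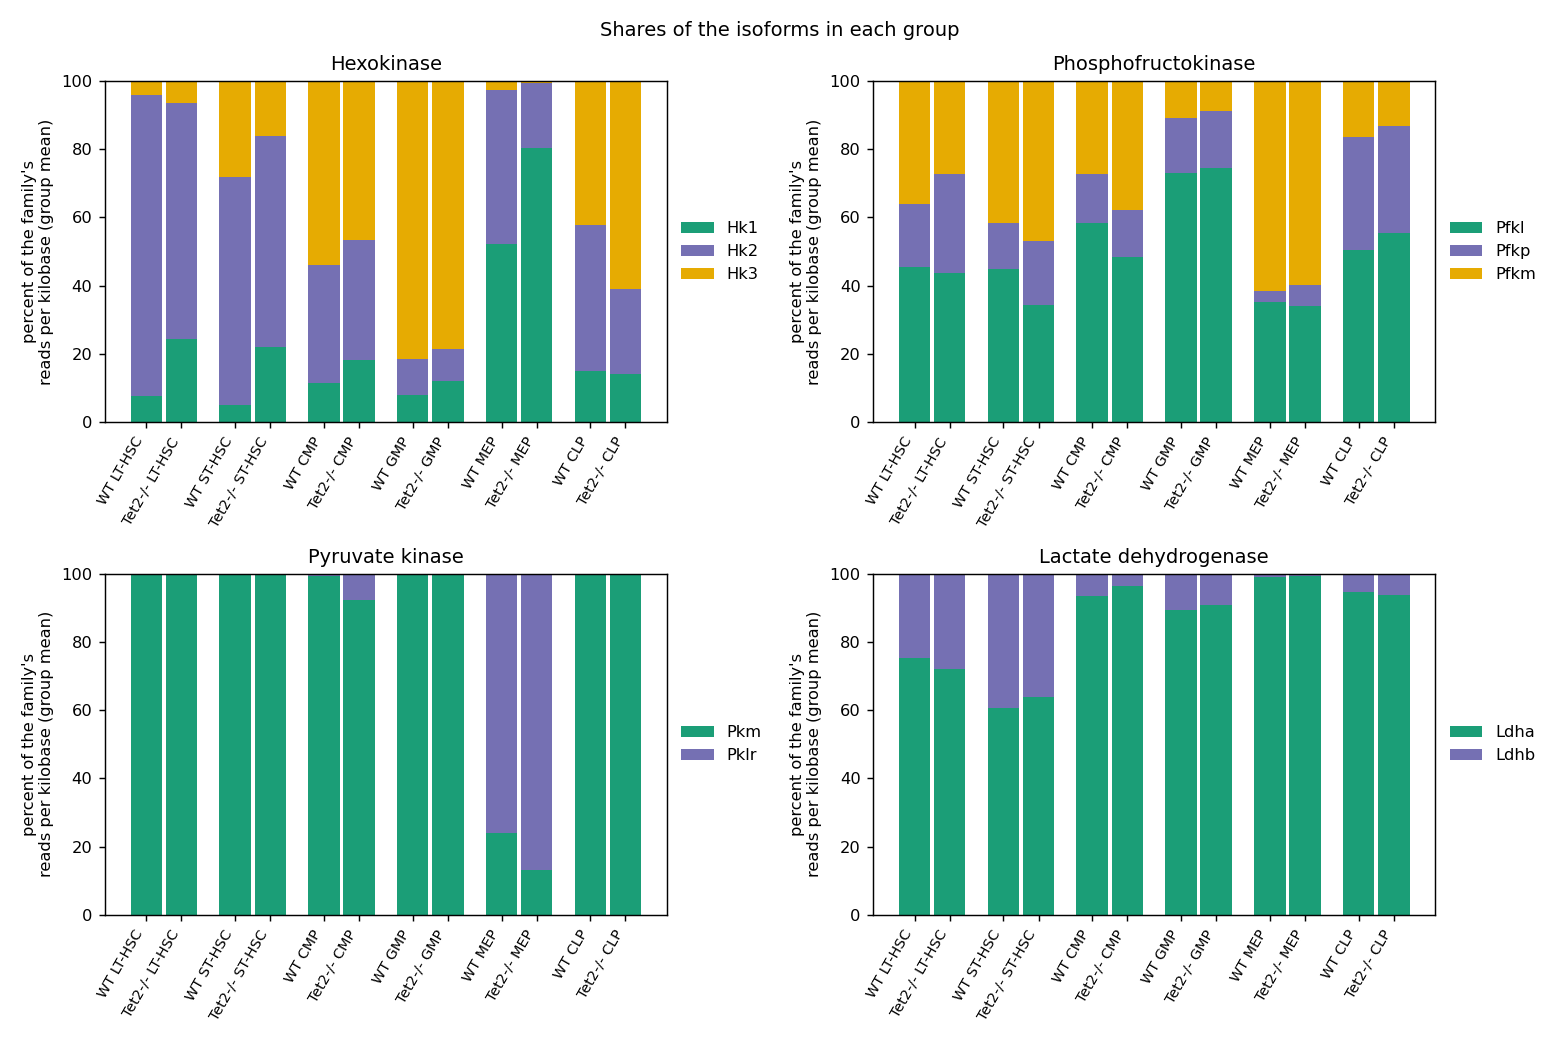
Share of each isoform in its family's reads per kilobase (percent, group means), for hexokinase, phosphofructokinase, pyruvate kinase and lactate dehydrogenase in the 12 groups. Hk2 has the largest hexokinase share in both HSC populations and Hk3 in CMP and GMP, while the order of Hk1 and Hk2 in WT MEP depends on the gene length used; Pklr takes most of the pyruvate kinase reads only in MEP.

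Populations that follow each other in the tree were compared over both genotypes with the edgeR quasi-likelihood test, adjusted over 22360 genes. Calls required both an adjusted p under 0.05 and a change of 2-fold or more. The 5 steps share libraries (ST-HSC enters 3 of them and CMP 3), so they are not independent. In bulk samples, fewer cells of a type and less RNA per cell cannot be told apart. The summed level of 7 cycling genes was 426 to 1316 CPM in both HSC populations, 174 to 1427 in CLP, 1215 to 2080 in CMP, 1424 to 1861 in GMP and 1526 to 2127 in MEP. Its part in the differences below was not tested.

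From CMP to GMP, 6 of the 10 genes rose and none fell, while among all genes 4.37% were called higher and 3.12% lower. The median log2 difference of the 10 genes was 1.21, against 0.00 over all genes. Pkm, which makes pyruvate, was at 204, 240, 319 and 267 CPM in the WT and 139, 212, 241 and 141 CPM in the Tet2-/- CMP libraries. In GMP it was at 974, 944, 773 and 1147 CPM (WT) and 853, 1084, 1055 and 1109 CPM (Tet2-/-). Every GMP library was above every CMP library, and the log2 fold change was 2.19 ± 0.29 (SE, adjusted p = 8.48e-07).

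Hk3 rose in the same step from 47.2 ± 16.5 (SD, n = 8) to 281 ± 53.6 CPM (n = 8), a log2 fold change of 2.64 ± 0.70 (SE, adjusted p = 0.00928). Its WT libraries were at 50.5, 58.7, 66.8 and 68.6 CPM in CMP and 236, 287, 210 and 379 CPM in GMP. No GMP library overlapped with CMP. In either genotype alone the Hk3 difference (log2 2.21 in WT and 3.16 in Tet2-/-) missed the threshold (adjusted p = 0.225 and 0.0809). Pfkl and Pfkp, the committing step of glycolysis, rose by log2 1.94 ± 0.33 (adjusted p = 5.33e-05) and 1.72 ± 0.26 (adjusted p = 8.82e-06), again with no overlap. Eno1 rose 2.03-fold, from 294 ± 26.9 to 599 ± 59.8 CPM (adjusted p = 3.34e-05), and came just under the 2-fold limit without WT GMP replicate 5 or Tet2-/- GMP replicate 5. Hk1 rose by log2 1.40 ± 0.43 (adjusted p = 0.0251), with overlapping ranges, and it missed the threshold in either genotype alone and without WT CMP replicate 3 (log2 1.29) or Tet2-/- CMP replicate 2 (1.27). Aldoa passed the adjusted p (0.000917) with a log2 fold change of 0.69, under 2-fold. Pgk1 (0.36), Ldha (0.24) and Hk2 (0.10) did not pass.

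From CMP to MEP, 4 genes fell and none rose, beside 8.76% of all genes called lower and 1.31% called higher. Pkm was at 21.7, 5.77, 13.4 and 10.7 CPM in WT and 15.6, 13.7, 7.37 and 3.42 CPM in Tet2-/- MEP. All 8 libraries were far below the lowest CMP library (139 CPM), and Pkm fell by 4.25 ± 0.31 on the log2 scale (adjusted p = 2.72e-13). Hk3 was at 0.28, 0.558, 1.15 and 0.0583 CPM in WT MEP and 0.696, 0, 0 and 0 CPM in Tet2-/- MEP. A count of 0 there allows up to 0.0384 to 0.0434 CPM per library (3 counts, counting error only), and Hk3 fell by 7.06 ± 0.87 on the log2 scale (adjusted p = 8.7e-08). Hk2 fell by 1.96 ± 0.29 (13.6 ± 4.58 against 53.7 ± 15.4 CPM, adjusted p = 3.19e-06) with no overlap. Pfkp fell by 1.49 ± 0.26 (adjusted p = 4.39e-05), with 1 MEP library (25 CPM) above the lowest CMP library (24.9 CPM), and in Tet2-/- libraries alone it missed the threshold (log2 fold change -0.96, adjusted p = 0.153).

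The other 6 genes did not pass in this step. Aldoa was at 397 ± 55.5 against 408 ± 51 CPM, and Ldha at 1092 ± 160 against 901 ± 93.7 CPM. The log2 fold change was 0.53 for Hk1, -0.47 for Pfkl, -0.32 for Pgk1 and -0.33 for Eno1. The median of the 10 genes was -0.40 against -0.07 over all genes.

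From ST-HSC to CMP, Pfkl was called higher (log2 1.23 ± 0.34, adjusted p = 0.0113), from 17.9 ± 5.29 (n = 7) to 42.7 ± 9.75 CPM (n = 8). The ranges did not overlap. In Tet2-/- libraries alone the rise was about as large (log2 1.45) but missed the threshold by edgeR (adjusted p = 0.179). Among all genes, 5.65% were called higher and 3.12% lower. Ldha and Eno1 passed the adjusted p (0.00529 and 0.00412) at 1.69-fold and 1.65-fold, under the 2-fold limit. Hk3 (log2 1.70, adjusted p = 0.116) and Pkm (0.75, adjusted p = 0.0817) did not pass. Between LT-HSC and ST-HSC none of the 10 genes was called by edgeR or DESeq2. By edgeR, 0.447% of all genes were called higher and 0.157% lower in ST-HSC. Beside 2430 of 22360 genes over all, 3 of the 10 had an unadjusted p under 0.05. The largest difference was Hk3, at 3.25 ± 1.52 CPM in LT-HSC and 14.8 ± 10.1 CPM in ST-HSC, whose ranges did not overlap (log2 2.09, adjusted p = 0.216). Ldha was at 870 ± 226 CPM in LT-HSC and 530 ± 92.2 CPM in ST-HSC (log2 -0.72, adjusted p = 0.0696).

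From ST-HSC to CLP, 5 genes were called higher, beside 13.5% of all genes called higher and 17.3% called lower. The B cell marker sum, given above, did not overlap between these populations, nor did the number of genes detected (13754 to 16903 in CLP and 17586 to 19095 in ST-HSC). The GMP marker sum, also given above, overlapped but had a higher median in CLP in both genotypes. The part of these in the CLP differences was not tested. Pfkp, at 20.3 ± 7.68 CPM (n = 7) in ST-HSC, was at 96.2 ± 42 CPM (n = 8) in CLP (log2 2.18 ± 0.28, adjusted p = 7.78e-08). Pfkl (log2 1.93 ± 0.35) and Pkm (1.72 ± 0.30) rose as well. Without Tet2-/- CLP replicates 2 and 3 these stayed called, at log2 2.28 for Pfkp, 2.01 for Pfkl and 1.73 for Pkm. Eno1 (log2 0.97, adjusted p = 3.1e-05) and Aldoa (0.68, adjusted p = 0.000582) passed the adjusted p by edgeR under the 2-fold limit. Pgk1 was lower (-0.48, adjusted p = 0.0302), also under that limit. DESeq2 (log2 1.065) and RLE scaling (1.072) called Eno1. Without the 2 libraries the values were 0.89 for Eno1, 0.68 for Aldoa and -0.34 for Pgk1, which then did not pass (adjusted p = 0.155). Hk1 and Hk3, called with all libraries (log2 1.30 and 2.12), were not called without those 2 libraries, at 0.06 (adjusted p = 1) and 1.73 (adjusted p = 0.0605). Tet2-/- CLP replicate 3, the library with the highest GMP marker sum, had 92.8 CPM of Hk1 and 243 CPM of Hk3, the highest of the 8 CLP libraries. WT CLP replicate 4 had no Hk3 count (up to 0.0486 CPM allowed). Hk2 was lower in CLP by a log2 fold change of -0.71 (adjusted p = 0.0491), and of -1.40 (adjusted p = 0.00014) without the 2 libraries, then past the 2-fold limit. The count of called genes was 3 without WT ST-HSC replicate 2, WT ST-HSC replicate 5 or Tet2-/- CLP replicate 3.

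**Figure D3:**
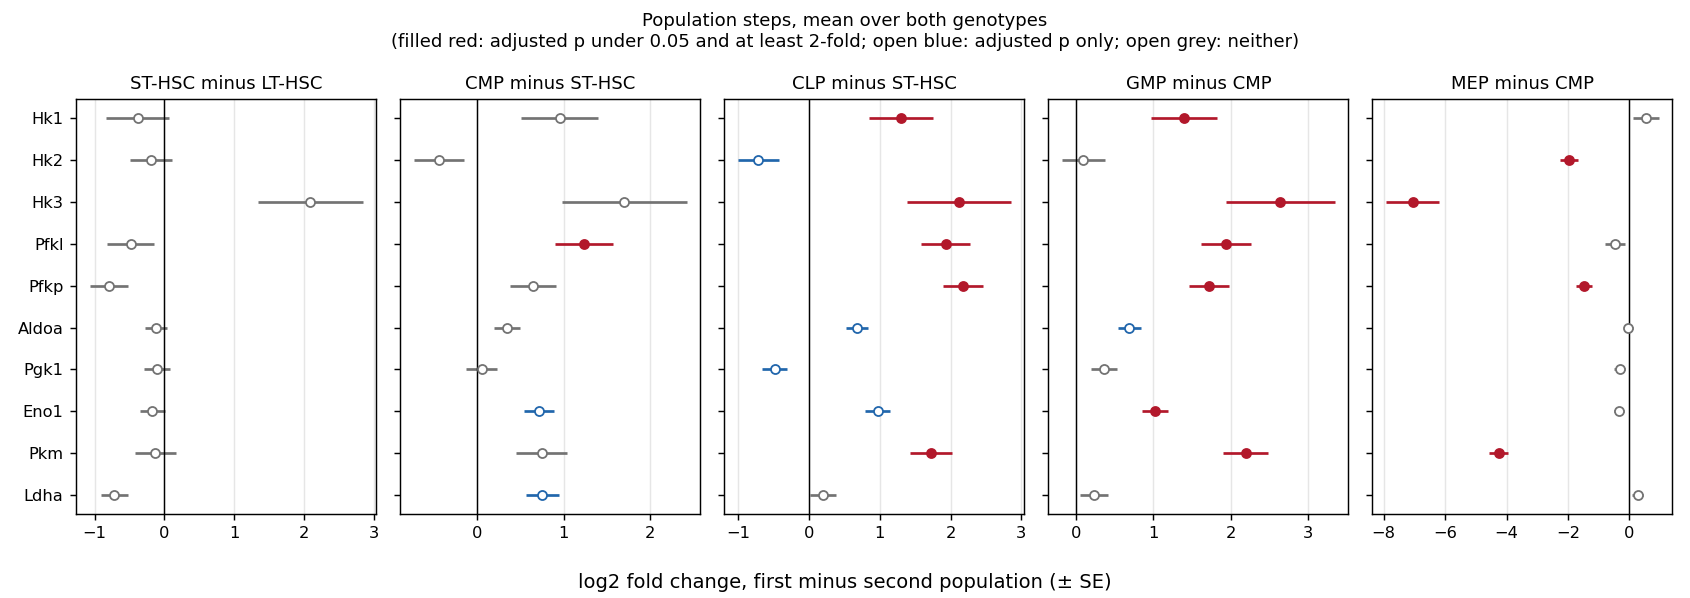
Log2 fold change (points, ± SE) of the 10 enzymes in each of the 5 population steps, as the mean over both genotypes; filled red points passed the adjusted p and the 2-fold limit, open blue points the adjusted p alone. Pkm, Pfkp, Pfkl and Hk3 are higher in GMP than in CMP, and Pkm, Pfkp, Hk3 and Hk2 are lower in MEP; the horizontal scales differ between panels.

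The isoform ratios gave the same families a direct test within each library, as the log2 ratio of reads per kilobase with 0.5 CPM added to each gene. Of 20 tests (4 ratios in 5 steps, 2-sided exact permutation tests), 10 had an adjusted p under 0.05. In WT or Tet2-/- libraries alone none of the 20 passed after adjustment, with fewer libraries per group. The 10 differences kept their direction in each genotype. For Hk2 to Hk3 from CMP to GMP the difference was -2.35 in WT and -2.66 in Tet2-/- libraries. For Pfkl to Pfkp from CMP to MEP it was 1.48 and 0.63. The ratio of Hk2 to Hk3 fell by 2.13 from LT-HSC to ST-HSC (adjusted exact permutation p = 0.00167) and by 2.13 from ST-HSC to CMP (0.000777). It fell by 2.50 from CMP to GMP (0.000777) and was 3.93 higher in MEP than in CMP (0.000777), each time with no overlap between the populations. The ratio of Hk1 to Hk2 was 1.32 higher in GMP (0.00622) and 2.49 higher in MEP (0.00155) than in CMP. The ratio of Hk1 to Hk3 fell by 2.23 from LT-HSC to ST-HSC (0.0155) and by 1.19 from CMP to GMP (0.0162) and was 6.42 higher in MEP (0.000777). The ratio of Pfkl to Pfkp was 1.06 higher in MEP than in CMP (0.00124), and no other step of this ratio passed.

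Between the genotypes, none of the 10 genes was called in any of the 6 populations by edgeR. The share of all genes called was 0.0183% in LT-HSC, 0.0185% in ST-HSC, 4.53% in CMP, 4.38% in GMP, 4.35% in MEP and 0.00766% in CLP. The number of the 10 genes with an unadjusted p under 0.05 was 2 in LT-HSC, 2 in ST-HSC, 4 in CMP, 1 in GMP, 4 in MEP and 1 in CLP. Over all genes it was, in that order, 853 of 16351, 999 of 16212, 3093 of 16047, 2891 of 16563, 2482 of 14934 and 495 of 13060. DESeq2 called Hk1 and Hk3 in ST-HSC and Hk1 in MEP, and none of the 10 genes in the other populations. Among all genes, DESeq2 called 199 higher and 132 lower of 22793 in ST-HSC, and 116 higher and 926 lower of 25121 in MEP. The 3 hexokinases held the genotype differences that came nearest to the threshold.

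Hk2 was at 117, 143 and 86.7 CPM in WT LT-HSC and at 63.9, 52.4, 61 and 51.5 CPM in Tet2-/- LT-HSC. All 4 Tet2-/- libraries lay below all WT libraries. The log2 fold change was -0.997 ± 0.22 (adjusted p = 0.539 by edgeR and 0.00516 by DESeq2, where the change was just under 2-fold). The sum of 4 platelet markers separated the same libraries, at 418 to 437 CPM in WT and 145 to 402 CPM in Tet2-/- LT-HSC. So did the HSC marker Hlf, at 21 to 110 CPM in WT and 130 to 215 CPM in Tet2-/- LT-HSC. The part of these markers was not tested. In ST-HSC, Hk2 was at 110, 94 and 73.3 CPM in WT and 65.2, 57.7, 71.5 and 23.9 CPM in Tet2-/- libraries (log2 -0.73, adjusted p = 0.893). In CMP it was at 64.3, 60.8, 76.6 and 57.9 CPM in WT and 47.6, 39.2, 55.7 and 27.1 CPM in Tet2-/- libraries (log2 -0.63, adjusted p = 0.125). The genotypes did not overlap in these 3 populations, and the Tet2-/- estimate was the lower in 6 of 6 populations under TMM, RLE and DESeq2 scaling. In GMP the means were 56 ± 9.22 and 56.2 ± 4.02 CPM.

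Hk1 was at 6.68, 6.71 and 5.88 CPM in WT ST-HSC and at 23.8, 11.7, 9.5 and 21 CPM in Tet2-/- ST-HSC. The groups did not overlap (log2 1.39 ± 0.43, adjusted p = 0.589 by edgeR and 0.0381 by DESeq2). In MEP, Hk1 was at 34.6, 8.44, 15 and 14.5 CPM in WT and 43.2, 51.8, 57.9 and 32.1 CPM in Tet2-/- libraries. The ranges overlapped through WT replicate 2 (log2 1.33 ± 0.40, adjusted p = 0.111 by edgeR and 0.016 by DESeq2), and without that library edgeR called the difference (log2 1.86). In the same MEP libraries Klf1 was at 238 to 399 CPM in WT and 25.3 to 48.3 CPM in Tet2-/-, Ccna2 at 167 to 298 and 81.1 to 110 CPM, and Mki67 at 167 to 179 and 199 to 254 CPM, each without overlap, and their part was not tested. In LT-HSC the levels were 15.9, 6.01 and 6.23 CPM in WT and 23.6, 15.1, 21.7 and 16.7 CPM in Tet2-/- libraries (log2 1.05, adjusted p = 0.931), with WT replicate 2 inside the Tet2-/- range. The Tet2-/- estimate was the higher in 5 of 6 populations under TMM scaling and in 6 of 6 under RLE, the exception being CMP (log2 -0.01).

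The antisense gene Hk1os overlaps Hk1, and libraries of this kind do not mark strand, so reads of the pair cannot be told apart where they overlap. Hk1os was at 3.96 to 8.42 CPM in WT and 4.9 to 7.14 CPM in Tet2-/- ST-HSC, and at 1.6 to 3.6 and 2.45 to 4.5 CPM in MEP. Over all libraries its share of the Hk1 and Hk1os counts had a median of 9.71% and a maximum of 58.9%.

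Hk3 was at 50.5, 58.7, 66.8 and 68.6 CPM in WT CMP and at 37.5, 40.3, 29.4 and 25.8 CPM in Tet2-/- CMP. All Tet2-/- libraries were below all WT libraries, and the change passed the adjusted p but not the 2-fold limit (log2 -0.89 ± 0.18, adjusted p = 0.0163). It passed both when Tet2-/- replicate 3 was left out (log2 -1.01). Markers moved in the same comparison. The sum of the 5 MEP markers was 560 to 1572 CPM in WT and 2756 to 5595 CPM in Tet2-/- CMP, most of it Car1 (349 to 1322 and 2521 to 5288 CPM). Epor was also higher without overlap (15.5 to 24.4 and 28.5 to 48.7 CPM), Gata1 and Gfi1b overlapped, and Klf1 was lower without overlap (26 to 70.9 in WT and 13.7 to 19.2 CPM in Tet2-/-). Of the 7 cycling genes, Mki67 (136 to 177 in WT and 227 to 326 CPM in Tet2-/-), Top2a (211 to 320 and 442 to 511) and Cdk1 (119 to 192 and 226 to 261) were higher without overlap. The medians of Ccna2 (114 to 191 in WT and 80.4 to 129 CPM in Tet2-/-) and Mcm5 (165 to 212 and 127 to 194) were lower, with overlap. Ccnb1 and Pcna overlapped as well. The share of mitochondrial counts was 5.94 to 6.57% in WT and 7.85 to 8.37% in Tet2-/- CMP. The sum of the 5 GMP markers was 3759 to 5259 CPM in WT and 3468 to 3772 CPM in Tet2-/- CMP. That of the 5 CLP markers was 181 to 289 and 116 to 145 CPM, and Ighm was at 121 to 187 and 64.5 to 77.6 CPM, both without overlap. The part of these in the Hk3 difference, and in those of Hk2 and Pklr in the same libraries, was not tested. In ST-HSC, Hk3 was at 14.2, 33.1 and 24.1 CPM in WT and 8.38, 6.92, 9.81 and 7.18 CPM in Tet2-/- libraries, without overlap (log2 -1.52 ± 0.37, adjusted p = 0.408 by edgeR and 0.00308 by DESeq2). The mitochondrial share was 8.73 to 9.02% in WT and 10 to 13.1% in Tet2-/- ST-HSC, and its part in the ST-HSC differences of Hk1, Hk2, Hk3 and Pfkl was not tested. In GMP the Hk3 means were 284 ± 33.7 and 278 ± 74.4 CPM.

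**Figure D4:**
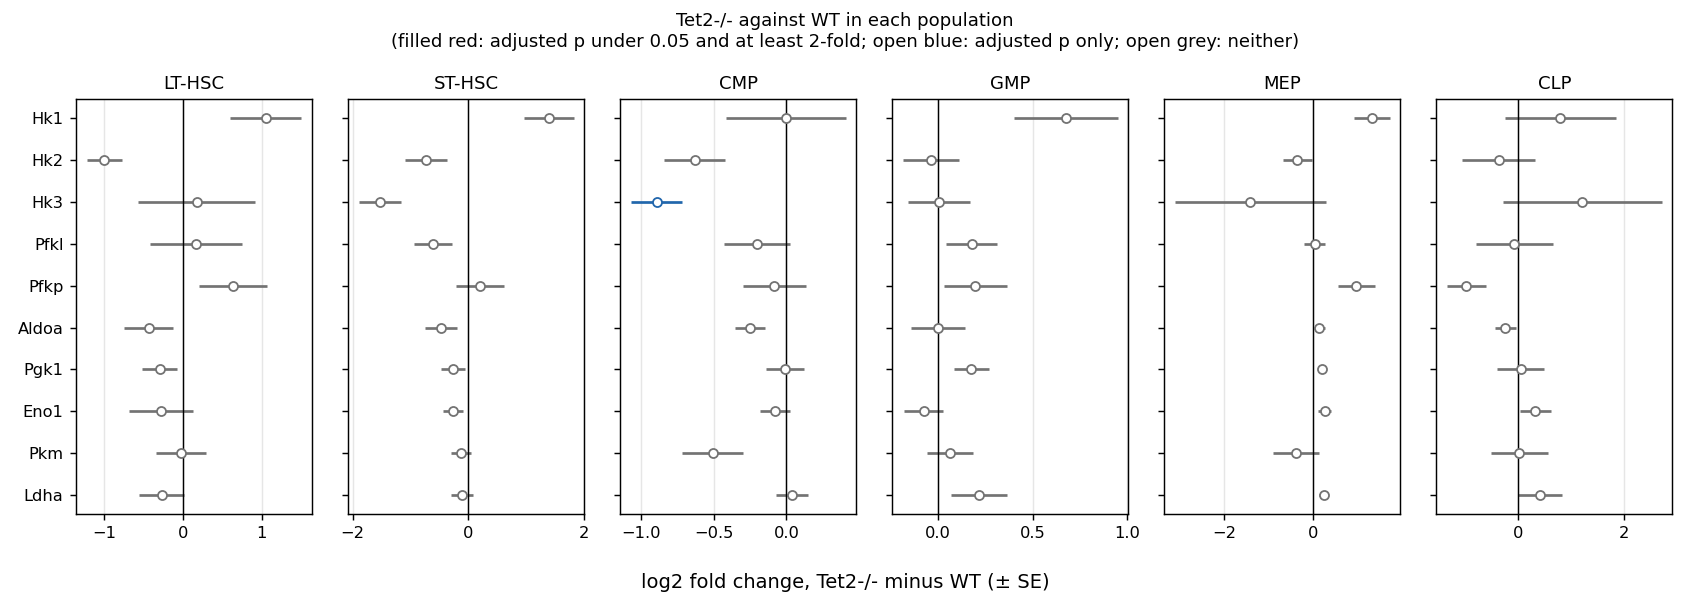
Log2 fold change (points, ± SE) of the 10 enzymes in Tet2-/- against WT libraries of each population; the open blue point passed the adjusted p alone and open grey points did not pass. Hk3 in CMP is the blue point, at -0.89, and the horizontal scales differ between panels.

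Outside the hexokinases no genotype difference passed the adjusted p. The genotypes did not overlap for Pfkp in CLP and for Pfkl in ST-HSC. How many of all genes lacked overlap was not counted in any comparison, so a lack of overlap is given as a description only. Pfkp was at 64.8 ± 22.4 CPM in Tet2-/- and 128 ± 31.2 CPM in WT CLP, without overlap (log2 -0.98, adjusted p = 1), and the log2 difference was -0.81 (adjusted p = 1) without Tet2-/- CLP replicates 2 and 3. Ighm separated the same libraries (144925 to 277501 CPM in WT and 583 to 130191 CPM in Tet2-/-), and its part and that of the B cell markers were not tested. In MEP, Pfkp was at 15.8 ± 6.16 CPM in Tet2-/- and 7.93 ± 4.21 CPM in WT libraries (log2 0.98, adjusted p = 0.281). In the edgeR test of whether the genotype effect differs between populations, Pfkp had the smallest adjusted p of the 10 genes (0.181). None of the 10 passed that test, which 2.66% of all genes did. An unadjusted p under 0.05 was reached by 1 of the 10, and by 3104 of 22360 genes over all. Pkm in CMP was at 183 ± 51.3 and 258 ± 48.1 CPM (adjusted p = 0.226). In the terminal step, Ldha in MEP was at 1191 ± 177 and 992 ± 47.5 CPM (adjusted p = 0.249). Pfkl in ST-HSC was at 14.5 ± 4.12 and 22.6 ± 1.38 CPM, without overlap (adjusted p = 0.921). The log2 differences of Aldoa, Pgk1 and Eno1 lay between -0.48 (Aldoa in ST-HSC) and 0.33 (Eno1 in CLP).

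As shares, Hk1 held 24.5% ± 2.1 (n = 4) of the hexokinase reads per kilobase in Tet2-/- LT-HSC and 7.67% ± 4.09 (n = 3) in WT. In ST-HSC it held 22.1% ± 12.4 and 4.97% ± 0.337, and in MEP 80.3% ± 4.79 and 52.2% ± 12.9. The log2 ratio of Hk1 to Hk2 was 2.11 higher in Tet2-/- LT-HSC, 2.05 higher in Tet2-/- ST-HSC and 1.83 higher in Tet2-/- MEP, without overlap of the genotypes. By the 2-sided exact permutation test, the p was 0.0286, 0.0571 and 0.0286, where 0.0286 is the smallest that these group sizes allow. None of the 24 genotype tests of ratios passed after adjustment (smallest adjusted p 0.171). Hk1 to Hk3 in ST-HSC (2.64 higher) and Pfkl to Pfkp in MEP (-1.01) also reached 0.0286.

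**Figure D5:**
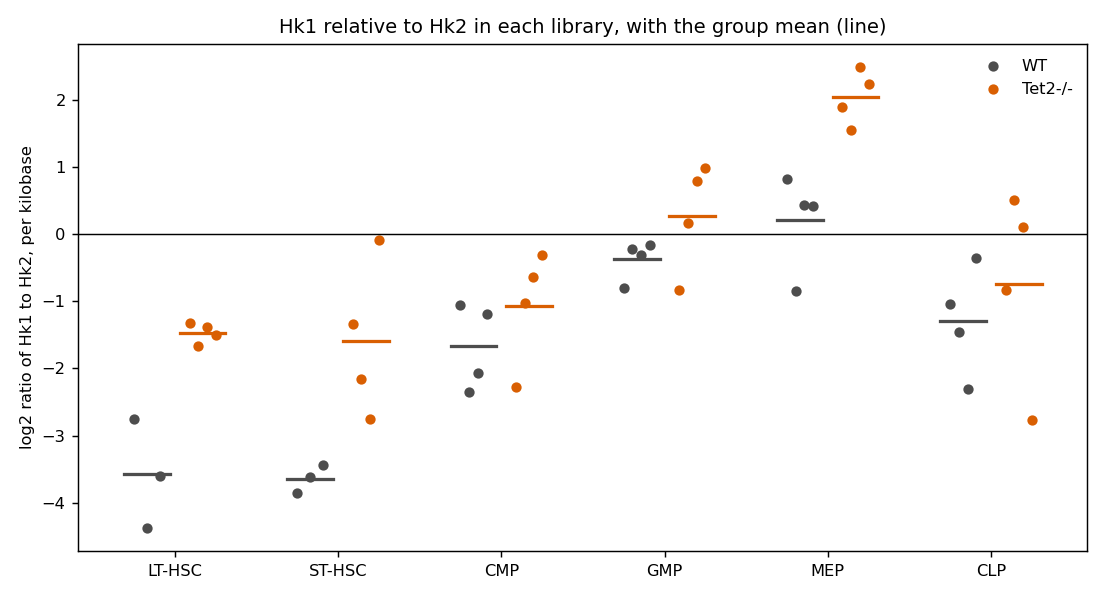
Log2 ratio of Hk1 to Hk2 reads per kilobase in every library (points) with the group mean (line), by population and genotype. Tet2-/- libraries lie above all WT libraries in LT-HSC, ST-HSC and MEP, and the genotypes overlap in CMP, GMP and CLP.

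The other genes of the pathway were read from lists of related enzymes, transporters and regulators. Of 20 other glycolytic enzymes and isoforms, 16 were tested in the steps. From CMP to GMP, 3 of them rose and 2 fell, beside 4.37% of all genes called higher and 3.12% called lower. For the other steps, the shares of all genes called are those given above. Gpi1, which makes fructose-6-phosphate, rose by log2 1.498 ± 0.16 and Pgam1, the phosphoglycerate mutase, by 1.06 ± 0.23, while Ldhb rose by 1.31 ± 0.25. From CMP to MEP, Pgam1 fell by 2.85 ± 0.24 and Ldhb by 2.44 ± 0.26, and Pklr rose by 3.21 ± 0.997 (adjusted p = 0.0265). Pklr fell towards GMP, with no count in 7 of 8 GMP libraries and 8.41 ± 7.56 CPM in CMP. From ST-HSC to CMP, Ldhb fell by 2.81 ± 0.27, Pgam1 rose by 1.12 ± 0.24 and Pklr by 4.18 ± 1.11. The testis isoform Ldhc was called in both steps at means of at most 0.358 CPM. From ST-HSC to CLP, Ldhb fell by 3.33 ± 0.27, while Pklr and Eno2, both called lower, had means under 1 CPM in either population. Pgam2, the muscle phosphoglycerate mutase, was called higher in CLP, with 44 ± 21.8 CPM in WT and 1.62 ± 2.38 CPM in Tet2-/- CLP.

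In the genotype tests, where 11 or 12 genes of this list could be tested per population, Pklr was the one partner isoform past the adjusted p in CMP. It was at 2.22, 2.19, 0.239 and 3.08 CPM in WT CMP and 9.09, 19.3, 17.3 and 14 CPM in Tet2-/- CMP. The groups did not overlap (log2 2.92 ± 0.64, adjusted p = 0.0253), in the same libraries in which Car1 and Epor were higher and Klf1 lower, and the part of these differences was not tested. In MEP, Pklr was at 65.3 ± 13.8 CPM in Tet2-/- and 38.1 ± 6.83 CPM in WT libraries (log2 0.76, adjusted p = 0.0451, under 2-fold), in the libraries whose Klf1, Ccna2 and Mki67 levels differed as above. Ldhb in CMP was at 22.7 ± 7.39 CPM in Tet2-/- and 41.7 ± 5.41 CPM in WT libraries, without overlap (log2 -0.89, adjusted p = 0.0671). Adpgk, which phosphorylates glucose with ADP, was lower in Tet2-/- CMP (log2 -1.01, adjusted p = 0.0183) and GMP (-2.60, adjusted p = 3.21e-05).

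Of the 8 glucose and monocarboxylate transporters, Slc2a1 (GLUT1) fell from 21.6 ± 9.67 CPM in CMP to 1.63 ± 1.32 CPM in MEP (log2 -3.76, adjusted p = 3e-07). Slc16a1, a lactate carrier, rose from ST-HSC to CMP (log2 1.76, adjusted p = 0.00487) and from CMP to GMP (from 66.7 ± 13.2 to 162 ± 16.3 CPM, adjusted p = 0.0307). From ST-HSC to CLP, Slc2a1, Slc2a6, Slc2a8 and Slc16a3 were called higher and Slc2a3 and Slc16a7 lower, beside 13.5% and 17.3% of all genes. Slc2a6 had means of 0 CPM in LT-HSC, 0.234 in ST-HSC, 3.5 in CMP, 20.3 in CLP and 0 in MEP, and was called in each of those 4 steps. Slc2a4 was called higher in MEP at a mean of 0.106 CPM. Of 7 genes of the pentose phosphate branch, which leaves glycolysis at glucose-6-phosphate, G6pdx (log2 1.30), Pgd (1.79) and Tkt (1.46) rose from CMP to GMP. From ST-HSC (7.05 CPM), Pgls was higher in CMP as the mean over genotypes (log2 2.35, with 112 CPM in WT and 11.6 CPM in Tet2-/- CMP) and in CLP (3.63), and Pgd was higher in CLP (1.28). Of 11 regulators tested, Hif1a (-1.25) and Tigar (-4.39) fell from CMP to MEP, and Epas1 was called higher in CLP (14.3 CPM) than in ST-HSC (0.0214 CPM) and, at a mean of 0.22 CPM, in GMP. Of 14 genes of pyruvate entry into mitochondria, none was called from CMP to GMP or MEP by edgeR. In each of these steps 2 passed the adjusted p under the 2-fold limit. An unadjusted p under 0.05 was reached by 4 and 3, beside 5588 and 5761 of 22360 genes over all. From ST-HSC, Pdk3 (log2 1.05 as the mean over genotypes, with 124 CPM in WT and 28.1 CPM in Tet2-/- CMP against 29 CPM in ST-HSC) and Pcx (2.31 against 0.067 CPM) were higher in CMP, and Pdk2 (2.88) and Mpc2 (1.28) in CLP.

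By genotype, every call in these lists other than Pklr in CMP was lower in Tet2-/- libraries, as were most calls over all genes (622 lower and 105 higher in CMP, 672 and 53 in GMP, 627 and 22 in MEP), so this direction is not particular to the lists. The labels name no batch, and a batch that followed genotype cannot be told apart from it in these differences, several of which had little spread between libraries. Pgls, the second enzyme of the pentose phosphate branch, was at 11.6 ± 2.01 CPM in Tet2-/- and 112 ± 25 CPM in WT CMP (log2 -3.29), and was lower in GMP (-2.99) and MEP (-3.27). Pdk3, a kinase that inhibits pyruvate dehydrogenase, was lower in the same populations (-2.16, -1.34 and -2.18). In GMP, Pdk1 (-1.67), Hif1a (-1.76), Mlxip (-1.42) and the transporter Slc2a8 (-1.17) were lower. The genotype effect differed between populations for Pgls (adjusted p = 3.25e-05) and Pdk3 (0.00598).

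The 12 group means were used to find the genes whose pattern was most like each enzyme, among 8871 genes with a mean of at least 10 CPM. For Hk3 these were Ncf1 (r = 0.987), Pgam1-ps2 (0.978) and Clec12a (0.978). For Pkm they were Arpc1b (0.986), Atp2a3 (0.986) and Tnfrsf1a (0.980), and for Pfkl Gusb (0.986), Kctd20 (0.980) and Ccar2 (0.977). Eno1 was closest to its own related rows Gm4735 (0.989) and Eno1b (0.979), then Slc35c2 (0.969). For Hk2 they were Plaur (0.968), Tnfaip8 (0.942) and Myl12b (0.940), and for Hk1 Sf3a1 (0.926), Washc5 (0.912) and Nap1l4 (0.909). Pfkp was closest to Grn (0.955), Fam3a (0.954) and Spop (0.951), and Aldoa to Actr1b (0.961), Ctsa (0.960) and Puf60 (0.956). Pgk1 was closest to Tmem170b (0.927), Pygl (0.920) and Hmgn2 (0.920), and Ldha to Nomo1 (0.962), Mogs (0.942) and Mre11a (0.936). Among the 10 enzymes, the closest pair was Pfkl and Eno1 (r = 0.954), followed by Pfkl and Aldoa (0.939), Aldoa and Eno1 (0.930) and Hk3 and Pkm (0.913). Hk1 and Hk2 had r = -0.42. These coefficients are descriptions over 12 means that share libraries and scaling.

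Some of these counts are uncertain where reads could be split with near-identical copies. Eno1b held 7.77 to 13.4% of the Eno1 and Eno1b counts in a library, Pgk1-rs7 0.943 to 2.88% of the Pgk1 pair and Ldha-ps2 0.337 to 1.36% of the Ldha pair.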

How the data were processed

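RNA-seq was performed on 46 libraries of 6 sorted bone marrow populations, WT or Tet2-/-. Per the study's methods, reads were trimmed with Trim Galore and aligned to mm10 with HISAT2. The submitters' processing notes name mm9 as well as mm10, without giving its role, and the coordinates given here are those of mm10. The counting program and annotation are not given in the sources used here. The authors deposited whole-number counts per gene, not normalized. A second deposited table gave the gene length used for levels per kilobase. Its 9 count columns of other LT-HSC libraries were not used.

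Counts were tested with edgeR 4.0.16 (R 4.3.3, TMM scaling, quasi-likelihood test, 2-sided, Benjamini-Hochberg adjustment over all genes tested), with 1 fit per population for genotype and 1 fit over all 12 groups for population steps and for the test across populations. Genes were called at an adjusted p under 0.05 and at least a 2-fold change. The test was checked on simulated counts. Isoform ratios were tested by 2-sided exact permutation over libraries (scipy 1.17.1), with 0.5 CPM added. By the rule for named genes, the 10 enzymes and, of the lists, the genes called in a comparison and partner isoforms could be named. For similar genes, the 3 highest correlations are named. The enzymes, lists and tests were chosen with earlier results of these data known. Alternatives were DESeq2 1.42.0, RLE scaling, no count filter, no fold minimum, other gene lengths and added CPM, one genotype alone, leaving out libraries and a replicate block. Depth was 50458473 to 102148079 counts, and the limits given for counts of 0 cover counting error only, while SD and SE describe the spread between libraries.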

Additional observations from a re-analysis of the deposited data

Results flagged for a closer look

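In 6 of 100 groups of 4 libraries, 1 library lay far from the other 3, with most of the group's range between it and the nearest (Dixon's test). Chance gives such a gap in about 1 group of 20, so this number is near what chance gives. Hk1 was lowest in WT GMP replicate 2 at 29.5 CPM, against 44.2 CPM in the nearest library. Hk3 was highest in Tet2-/- MEP replicate 2 at 0.696 CPM, where the other 3 libraries had no counts. Pfkp was highest in Tet2-/- ST-HSC replicate 3 at 34.8 CPM (nearest 17.9) and in Tet2-/- MEP replicate 4 at 25 CPM (nearest 13.2). In Tet2-/- CLP replicate 2, where Pfkp was lowest at 31.6 CPM (nearest 71.2), Ighm was also lowest of the CLP libraries at 583 CPM. Eno1 was lowest in Tet2-/- CLP replicate 5 at 254 CPM (nearest 421).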

How the results depend on the processing

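No called difference of the 10 enzymes, and no ratio test that passed, changed direction under any alternative run. Genes of the other lists were not followed through the alternatives. From ST-HSC to CMP the count of called enzymes was 1, with 0 in Tet2-/- libraries alone and 3 with no fold minimum. From ST-HSC to CLP it was 5, with 6 by DESeq2 (Eno1 added) and 9 with no fold minimum. Between genotypes it was 0, with 2 in ST-HSC (Hk1, Hk3) and 1 in MEP (Hk1) by DESeq2 and 1 in CMP (Hk3) with no fold minimum. Of the ratio tests between populations 10 passed, with 0 in WT alone and 0 in Tet2-/- libraries alone. Leaving out 1 library at a time, the count ranged from 3 to 6 from ST-HSC to CLP, from 5 to 6 from CMP to GMP, from 0 to 1 by genotype in CMP (1 without Tet2-/- replicate 3) and in MEP (1 without WT replicate 2), and from 10 to 12 for the ratio tests. The counts of 0 from LT-HSC to ST-HSC, 1 from ST-HSC to CMP and 4 from CMP to MEP did not move. Where a cause is not given by fewer libraries or the fold limit itself, the cause was not tested. Other gene lengths and the omission of Tet2-/- CLP replicates 2 and 3 were chosen after seeing the data. At low levels, as for Hk3 in MEP, depth limits the size of a fold change.

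Libraries with the same replicate number were not paired, as the labels do not say whether a number marks 1 mouse. Their deviations correlated above 0.1 in 2 of 22 pairs between genotypes and 16 of 37 between populations. With their own number 11 of 22 and 24 of 37 correlated best (7 of 8 from CMP to GMP, 2 of 7 from ST-HSC to CLP). Between populations the own number was thus the best match in most pairs, and the share that unrelated numbers would give was not computed. These values do not show that the numbers are unrelated between populations. The main tests of steps and ratios treat the libraries as independent, so counts with a replicate block are also given. With a replicate block the called counts were 0 from LT-HSC to ST-HSC, 1 from ST-HSC to CMP, 4 from ST-HSC to CLP (Hk1 lost, log2 1.09, adjusted p = 0.0663 by edgeR), 6 from CMP to GMP, 4 from CMP to MEP and 0 between genotypes, and 11 ratio tests passed.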

Other observations

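Minor isoforms took small shares in the WT populations, and neither Aldoc nor Eno3 passed the edgeR test in any step (smallest adjusted p 0.0659, Aldoc from ST-HSC to CMP). Aldoc, the brain type aldolase, held 5.54% ± 3.63 (SD, n = 3) of the aldolase reads per kilobase in LT-HSC and 6.53% ± 1.34 (n = 3) in ST-HSC, and at most 1.27% ± 1.48 (n = 4, CLP) in the other populations. Eno3, the muscle enolase, held 4.02% ± 1.27 (n = 4) of the enolase reads in MEP and 0.642% ± 0.277 (n = 4) in GMP. From ST-HSC to CLP, Pdk2, which inhibits pyruvate dehydrogenase, rose from 4.4 ± 1.9 to 32.2 ± 14.5 CPM (log2 2.88 ± 0.44, adjusted p = 2.26e-06 by edgeR), without overlap. Slc2a1 rose from 20 ± 7.59 to 48.7 ± 17.7 CPM in the same step (adjusted p = 0.0282 by edgeR), with overlapping ranges. These comparisons hold the CLP libraries that stood apart in their markers, and the part of those libraries was not tested for Pdk2 and Slc2a1.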
